A study of Mus musculus with 3 samples.

Results

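The BCL2 survival family was followed through tumor-infiltrating lymphocytes (TILs) as 9 genes chosen by symbol: *Bcl2*, *Bcl2l1*, *Mcl1*, *Bcl2a1b*, *Bcl2a1d*, *Bax*, *Bak1*, *Bcl2l11* and *Pmaip1*. They are 9 of the 32285 genes in the deposited tables, and all 9 passed the filter on low counts in every tested comparison. BCL2 family proteins set whether the outer mitochondrial membrane stays intact. BCL2, BCL-xL (*Bcl2l1*), MCL1 and A1 (the *Bcl2a1* genes) hold it closed, BAX and BAK (*Bak1*) open it and release cytochrome c, and the BH3-only proteins BIM (*Bcl2l11*) and NOXA (*Pmaip1*) bind the protective members and free the effectors. In lymphocytes these proteins are known to couple survival to cytokine and antigen receptor signals, and BIM is known for the removal of T and NK cells when such signals end.

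The TILs came from subcutaneous MC38-Ova tumors, an ovalbumin-bearing colon adenocarcinoma line, grown from 250000 cells in WT C57BL/6 Kaede mice, whose fluorescent protein turns from green to red in violet light. The labels name an isotype control treatment for all 3 libraries, and no untreated or tumor-free cells were analyzed here. Tumors were photoconverted on day 13 and taken on day 15, so Kaede-green (KG+) cells had entered within 48 h and Kaede-red (KR+) cells had been in the tumor at photoconversion. There were 2 libraries of KG+ cells (Kaede-green 1 and 2), which the labels call biological replicates, and 1 of KR+ cells (Kaede-red). The number of mice behind each library was not given in the sources used here. Live CD45+ TER119- cells were sorted with CD11b+ NK1.1- cells left out. Droplet-based 3' RNA sequencing of these cells gave, for each gene in each cell, a count of distinct transcripts by molecular identifier (UMI), which the authors deposited without normalization.

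Cells were grouped by raw UMIs. NK cells held *Ncr1* and at most 1 UMI of *Cd3e*, and were split into cells with *Itgam* and no *Itga1* (*Itgam* NK cells) and cells with *Itga1* and no *Itgam* (*Itga1* NK cells). CD8 T cells held at least 2 UMIs of *Cd3e* with *Cd8a* and *Cd8b1*, and were split by *Havcr2*, which encodes the checkpoint receptor TIM-3. CD4 T cells and regulatory T cells (Treg) also held at least 2 UMIs of *Cd3e*, CD4 T cells with *Cd4* and without *Foxp3*, and Treg with *Foxp3*. The γδ T cell gate was looser, with at least 1 UMI of *Cd3e*, and required *Cd163l1*. The 3 libraries held 87193225, 129438292 and 175848894 UMIs, and 10000, 11078 and 10865 cells passed the filters on genes and mitochondrial UMIs. Of these, 5862, 7027 and 8289 cells met the gate of a single type, and 20 to 36 cell barcodes were shared between any pair of libraries. The 7 groups of a library (the NK and CD8 T subgroups, CD4 T, Treg and γδ T cells) held 127 to 2072 cells, except that Kaede-red had 76 *Itgam* NK cells. All NK cells numbered 2605, 2673 and 3173. Of these, 1827, 1831 and 1536 held neither integrin transcript and 38, 46 and 36 held both. Such cells were in neither NK subgroup but were kept where all NK cells were compared with all CD8 T cells (2248, 3094 and 3945). The 5 γδ T markers summed to 3626 to 5527 CPM (UMIs of a gene over all UMIs of the group, times 1e6) in γδ T cells and at most 108 CPM in the other 6 groups. Other marker lists overlapped between gates. The 6 NK markers summed to 2712 to 3066 CPM in *Itga1* NK cells and 1919 to 2752 CPM in *Havcr2* CD8 T cells, and the 4 CD4 T markers to 1667 to 1904 CPM in CD4 T cells and 1656 to 1992 CPM in Treg. In CD4 T cells the 4 Treg markers, *Foxp3* at 0 by the gate, still summed to 756 to 1457 CPM, against 3343 to 3847 CPM in Treg.

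A level below is the CPM of a gene in the summed UMIs of a cell group in 1 library, and values of the 3 libraries are given in the order Kaede-green 1, Kaede-green 2 and Kaede-red. Levels are compared for the same gene between groups, never between genes. Differences were tested over the 3 libraries with edgeR's quasi-likelihood test, with the library as a block and Benjamini-Hochberg adjustment over all genes tested. The p-values therefore measure the spread of a difference over 3 libraries, of which 2 hold KG+ cells and 1 KR+ cells. The study split sorted TILs by color, and whether Kaede-red shared tumors with a Kaede-green library was not stated in the sources used here. The 3 libraries may therefore not be independent.

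*Bcl2* (chr1:106538178-106714274, minus strand, GRCm38) had the widest range of the 9 genes. *Itgam* NK cells held 583, 478 and 332 CPM of *Bcl2*, and Treg held 45.1, 45.3 and 38.6 CPM. The mean fell 10.8-fold from *Itgam* NK cells, at 465 ± 126 CPM (SD, n = 3), to Treg, at 43.0 ± 3.85 CPM (SD, n = 3). *Itga1* NK cells followed with 263 ± 54.9 CPM and CD8 T cells without *Havcr2* with 222 ± 36.4 CPM, and the libraries of these neighbors overlapped. CD4 T cells, γδ T cells and *Havcr2* CD8 T cells came next at 142 ± 35.5, 119 ± 10.2 and 115 ± 18.8 CPM, also with overlapping libraries. Treg libraries were all below those of every other group.

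*Bcl2l11* (chr2:128126038-128162547, plus strand), the gene of BIM, followed *Bcl2*: ordered by their means, the 7 groups came in the same order for both genes, whose proteins oppose each other. *Itgam* NK cells held 667, 672 and 478 CPM of *Bcl2l11* and *Itga1* NK cells 406, 436 and 238 CPM. CD8 T cells without *Havcr2* held 234, 249 and 157 CPM, and those with *Havcr2* 138, 188 and 124 CPM. CD4 T cells held 215, 243 and 162 CPM, γδ T cells 167, 185 and 152 CPM, and Treg 96.8, 101 and 78.3 CPM. The span between the highest and lowest means was 6.59-fold. Across the 21 sums of 7 groups and 3 libraries, *Bcl2* and *Bcl2l11* had a Pearson r of 0.92 on the log2(CPM + 1) scale. Among 5146 genes with a mean of at least 20 CPM, only *H2afj* was closer to *Bcl2* than *Bcl2l11* was, and the genes closest to *Bcl2l11* were *Eomes* (0.96), *Dusp2* (0.95) and *Nrarp* (0.95). Groups of a library share its preparation and differ in depth per cell, so these are descriptions.

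**Figure D1:**
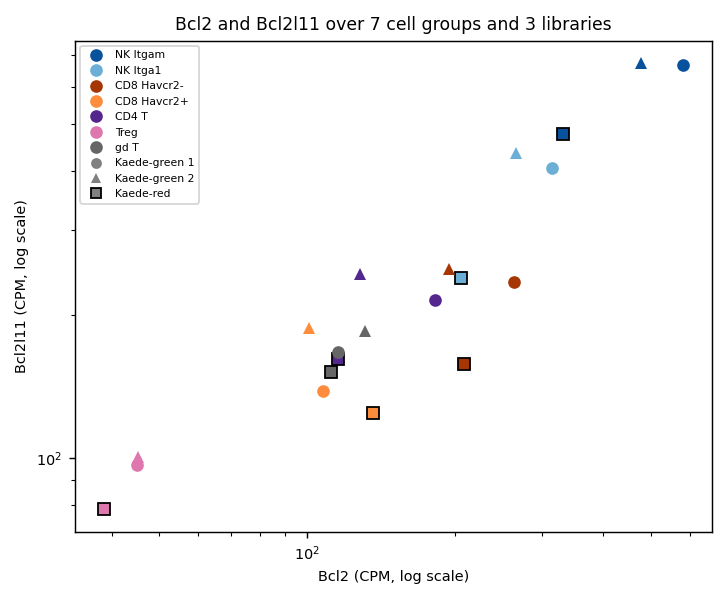
Level of Bcl2l11 (CPM, log axis) against level of Bcl2 (CPM, log axis), 1 point for each of 7 cell groups (color) in each of 3 libraries (shape). Itgam NK cells lie at the upper right and Treg at the lower left, and the points give a Pearson r of 0.92.

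*Bcl2l1* (chr2:152780668-152831728, minus strand), the gene of BCL-xL, ran the other way. Treg held 113, 100.2 and 104 CPM of *Bcl2l1* and CD4 T cells 62.1, 68.8 and 59.7 CPM, and the libraries of these groups did not overlap. CD8 T cells followed with 44.4, 48.3 and 39.7 CPM without *Havcr2* and 46.9, 57.2 and 44.0 CPM with it. γδ T cells held 25.9, 42.5 and 24.7 CPM. The NK groups were lowest, with 25.2, 31.9 and 13.8 CPM in *Itgam* and 18.7, 21.9 and 16.7 CPM in *Itga1* NK cells. The span from Treg to *Itga1* NK cells was 5.52-fold.

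*Mcl1* (chr3:95658788-95663176, plus strand) varied least among the protective genes, 1.83-fold between the highest and lowest means. CD4 T cells held 470, 398 and 379 CPM of *Mcl1*, and *Itga1* NK cells 257, 231 and 193 CPM. *Itgam* NK cells held 397, 331 and 311 CPM, close to γδ T cells with 406, 365 and 302 CPM. CD8 T cells held 373, 336 and 280 CPM without *Havcr2* and 290, 275 and 247 CPM with it, and Treg 319, 295 and 329 CPM. Ordered by their means, from CD4 T cells through γδ T cells, *Itgam* NK cells, CD8 T cells without *Havcr2*, Treg and *Havcr2* CD8 T cells to *Itga1* NK cells, neighboring groups had overlapping libraries, except Treg and *Havcr2* CD8 T cells.

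The A1 genes *Bcl2a1b* (chr9:89199209-89207827, plus strand) and *Bcl2a1d* (chr9:88723285-88731914, minus strand) were highest in γδ T cells and lowest in NK cells. γδ T cells held 1349, 1145 and 1170 CPM of *Bcl2a1b*, above every library of the other groups. CD4 T cells held 678, 587 and 555 CPM of *Bcl2a1b*, *Havcr2* CD8 T cells 644, 579 and 392 CPM, Treg 449, 429 and 378 CPM and CD8 T cells without *Havcr2* 394, 457 and 308 CPM. *Bcl2a1b* in NK cells was at 150, 194 and 203 CPM with *Itgam* and 180, 177 and 202 CPM with *Itga1*. *Bcl2a1d* went from 639, 500 and 416 CPM in γδ T cells to 55.5, 64.3 and 44.6 CPM in *Itgam* NK cells, 9.46-fold between the means. Of all 5146 genes, each A1 gene was the closest to the other, with a Pearson r of 0.96 over the 21 sums.

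Another gene of the same cluster, *Bcl2a1a* (chr9:88956900-88962419, plus strand), is not among the 9 but stood beside them in γδ T cells. Those cells held 270, 248 and 202 CPM of *Bcl2a1a*, whereas no library of the other 6 groups passed 5.28 CPM. *Bcl2a1a* UMIs were found in 61.7%, 57.5% and 61.0% of γδ T cells, at median depths of 5883 to 6396 UMIs per cell, and no γδ T cell gave more than 3.86% of them. In the other groups at most 2.24% of cells had a UMI of *Bcl2a1a*, that share in *Havcr2* CD8 T cells with a median of 12550 UMIs. γδ T cells gave 407, 233 and 410 UMIs of *Bcl2a1a* and CD4 T cells 5, 9 and 3, so the gene passed the filter on low counts in that comparison through γδ T cells alone and its test is not used. The fourth paralog, *Bcl2a1c*, stayed at or below 3.32 CPM in every group.

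The upstream sequences of the 3 expressed A1 genes are shown because *Bcl2a1a* was largely confined to γδ T cells, whereas *Bcl2a1b* and *Bcl2a1d* were present in all groups. Each stretch, from RefSeq promoter windows on GRCm38.p6, ends before the annotated gene start and is written in the direction of transcription. Capitals mark bases of *Bcl2a1a* and *Bcl2a1b* that are changed or missing in *Bcl2a1d*, and the changed base in *Bcl2a1d*.
Bcl2a1a: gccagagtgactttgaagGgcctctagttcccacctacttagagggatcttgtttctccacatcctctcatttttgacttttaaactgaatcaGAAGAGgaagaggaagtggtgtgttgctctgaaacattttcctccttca
Bcl2a1b: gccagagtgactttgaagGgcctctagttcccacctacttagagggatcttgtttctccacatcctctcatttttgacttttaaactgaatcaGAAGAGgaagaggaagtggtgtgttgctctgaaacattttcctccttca
Bcl2a1d: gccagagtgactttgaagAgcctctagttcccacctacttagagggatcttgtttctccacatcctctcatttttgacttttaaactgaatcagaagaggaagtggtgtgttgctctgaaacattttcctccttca
The first lies at chr9:88956714-88956855 (plus strand), the next at chr9:89199023-89199164 (plus strand) and the last at chr9:88731915-88732050 (minus strand). *Bcl2a1a* and *Bcl2a1b* were the same at all 142 bases. The capitals thus set *Bcl2a1d* apart, whereas the levels set *Bcl2a1a* apart. Any part of these bases in the levels was not tested. *Bcl2a1d* had 136 bases, with 1 substitution and 6 bases missing, and since the missing letters form a repeat their exact place is not fixed. The motif TGANTCA, a loose form of the AP-1 motif with any base at N, was searched on both strands of the 300-base windows. It was found 1 time in each of the 3 genes, as TGAATCA, and in 7.81% of all 32851 windows. This is a match of letters and not a binding site.

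**Figure D2:**
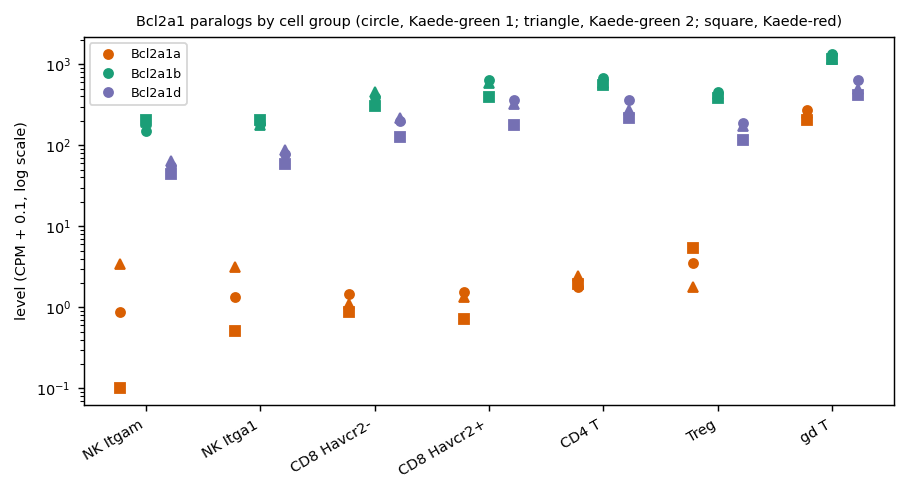
Level (CPM + 0.1, log axis) of Bcl2a1a, Bcl2a1b and Bcl2a1d (color) in 7 cell groups, 1 point per library (shape). Bcl2a1a lies above 200 CPM in γδ T cells (gd T) and at or below 5.28 CPM in the other groups, while Bcl2a1b and Bcl2a1d are present in all groups.

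Near-identical copies can share reads, so the split between the A1 genes is uncertain in part. In the last 500 bases of the transcripts, where 3' reads fall, 7.69% of the 150-base windows of *Bcl2a1b*, 19.9% of those of *Bcl2a1d* and 12.3% of those of *Bcl2a1a* were also found in another A1 transcript. *Bcl2*, *Bcl2a1b* and *Bax* overlap other annotated transcripts on their own strand (*Gm37053* and *Mir3473f*, *Gm29094*, and *Gm45808*).

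Of the effectors, *Bax* (chr7:45461697-45466898, minus strand) was highest in *Havcr2* CD8 T cells, with 180, 156 and 186 CPM, and lowest in *Itgam* NK cells, with 107, 111 and 87.7 CPM, a 1.71-fold span between the means. The libraries of every pair of neighbors in the order of *Bax* levels overlapped. *Bak1* (chr17:27019810-27029009, minus strand) was highest in Treg, with 70.2, 73.6 and 63.3 CPM, above every library of the other groups, and spanned 2.20-fold between the highest and lowest means. *Havcr2* CD8 T cells held 57.3, 48.1 and 54.1 CPM of *Bak1* and γδ T cells, the lowest, 37.8, 23.4 and 33.1 CPM.

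*Pmaip1*, the gene of NOXA, separated T cells from NK cells. Treg held 33.6, 37.4 and 37.1 CPM, γδ T cells 26.6, 38.3 and 41.5 CPM and CD4 T cells 32.1, 27.7 and 39.8 CPM, with overlapping libraries. *Havcr2* CD8 T cells held 29.0, 29.2 and 24.6 CPM of *Pmaip1*, above CD8 T cells without *Havcr2* with 18.5, 21.8 and 16.4 CPM. *Pmaip1* in NK cells came to 6.50, 8.40 and 7.69 CPM with *Itgam*, from 17, 20 and 5 UMIs, and to 4.93, 5.81 and 2.12 CPM with *Itga1*. The NK values rest on few UMIs, and the exact Poisson 95% intervals drawn for all levels cover counting error only.

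**Figure D3:**
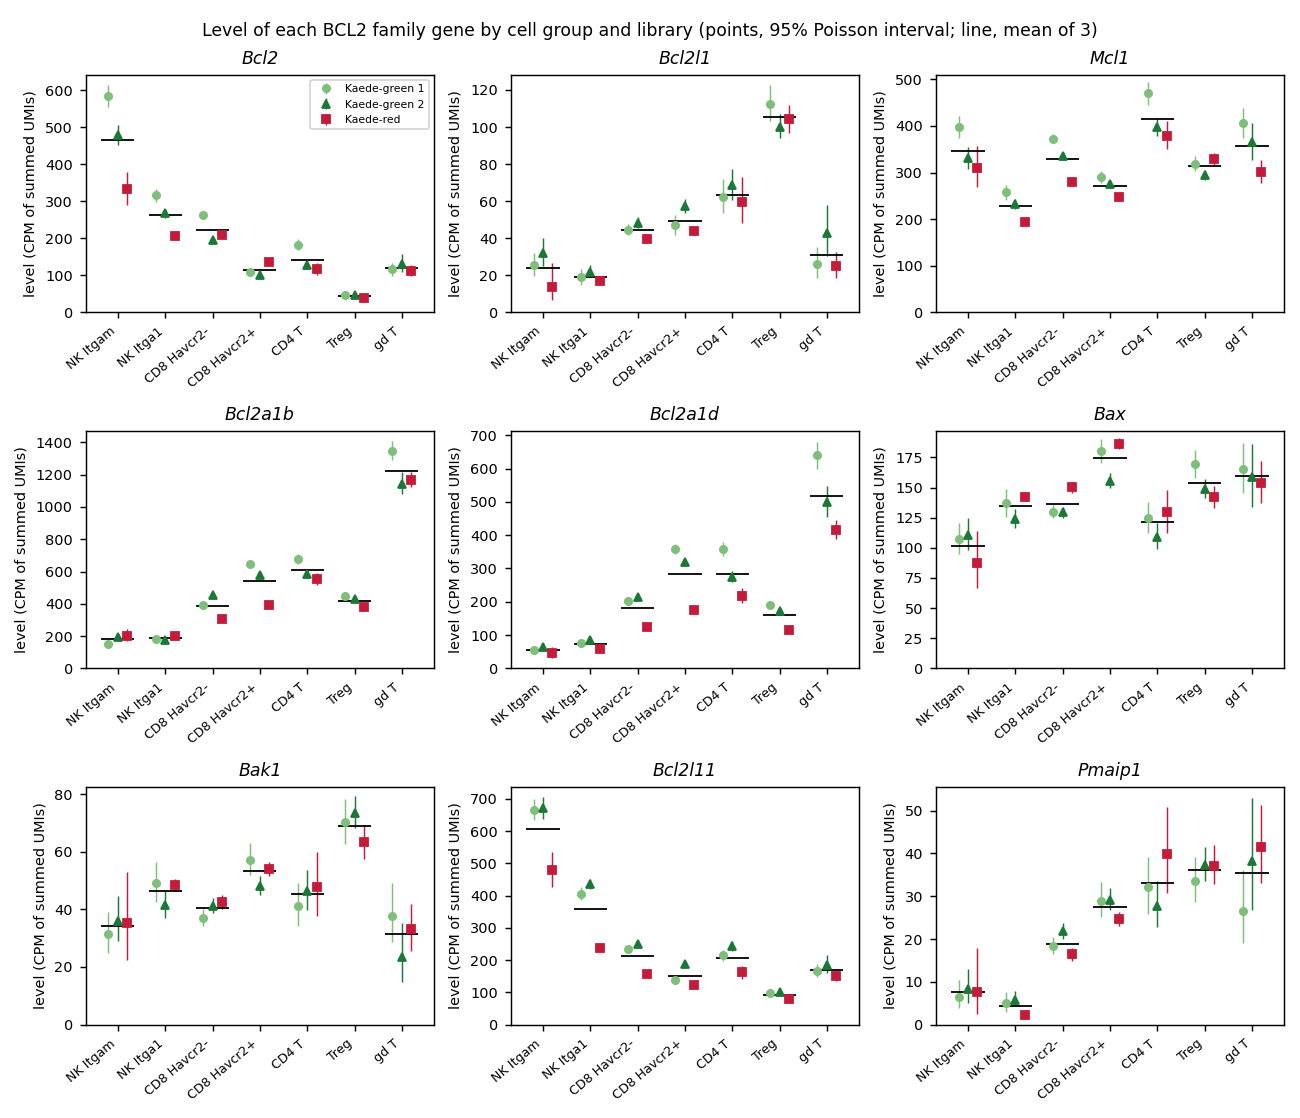
Level (CPM of summed UMIs, linear axes from 0) of the 9 genes in 7 cell groups. Points are libraries with exact Poisson 95% intervals and lines are means of 3 libraries. Bcl2 and Bcl2l11 are highest in Itgam NK cells and lowest in Treg, and Bcl2l1 is highest in Treg.

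CD49a (*Itga1*) and CD11b (*Itgam*) mark different states of intratumoral NK cells, and their comparison asked how the family differed between these states. *Itga1* NK cells had less *Bcl2*, *Bcl2l11* and *Mcl1* and more *Bax*, *Bak1* and *Bcl2a1d* than *Itgam* NK cells. *Bcl2* was 1.67-fold lower, a log2 difference of -0.74 ± 0.08 (SE; adjusted p = 4.3e-05, edgeR's quasi-likelihood test). *Bcl2l11* was 1.62-fold lower (-0.70 ± 0.09; adjusted p = 0.000125, edgeR) and *Mcl1* 1.44-fold lower (-0.53 ± 0.08; adjusted p = 0.000475, edgeR). These 3 genes were lower in 3 of 3 libraries. *Bcl2a1d* (0.51 ± 0.11), *Bak1* (0.50 ± 0.13) and *Bax* (0.44 ± 0.11) were higher in 3 of 3 libraries, with adjusted p of 0.00293, 0.00944 and 0.00739 by edgeR. The other 3 did not pass the test, with -0.30 ± 0.17 for *Bcl2l1*, 0.11 ± 0.10 for *Bcl2a1b* and -0.62 ± 0.35 for *Pmaip1*. Thus 6 of 9 genes were called, 3 higher and 3 lower, where 35.6% of 9504 genes were, 18.4% higher and 17.2% lower. The genes' median was -0.30 against -0.02 over all genes tested.

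The NK groups also differed in other ways that move with these values. Median depth was 5348, 6717 and 6701 UMIs per *Itgam* cell and 9493, 12066 and 24467 per *Itga1* cell. The 6 cycling genes summed to 36.3 to 63.0 CPM in *Itgam* and 159 to 448 CPM in *Itga1* NK cells. All 6 rose. The 8 myeloid markers summed to 138 to 580 and 48.4 to 223 CPM, with 4 of the 7 tested lower in *Itga1* cells and none at 0 in all libraries. Of the 4 Treg markers, all 3 tested were higher in *Itga1* cells, with sums of 67.3 to 147 and 200.5 to 261 CPM. The part of these differences in the family's values was not tested beyond the following fits. Without cycling cells 6 of the 9 genes were called (22.9% of all genes), and likewise without cells that held transcripts of other types (34.0% of all genes). In another fit, cells were thinned to 4000 UMIs before gating and cells with fewer were left out. *Itgam* NK cells then numbered 193, 165 and 39 and *Itga1* NK cells 124, 177 and 415. *Bcl2* and *Bcl2l11* passed the test in this fit and the other 7 did not, and 6.89% of all genes passed. The loss of depth and the loss of cells cannot be told apart here.

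Among CD8 T cells, those with *Havcr2* were compared with those without, since TIM-3 marks repeatedly stimulated cells. *Bcl2* showed the largest difference, 1.98-fold lower with *Havcr2* (-0.98 ± 0.12, log2 and SE; adjusted p = 0.000601, edgeR), from 263, 194 and 208 CPM to 108, 101 and 136 CPM. The groups did not overlap. *Bcl2l11* (-0.54 ± 0.09; adjusted p = 0.00243, edgeR) and *Mcl1* (-0.32 ± 0.06; adjusted p = 0.00568, edgeR) were also lower, each in 3 of 3 libraries. Higher in 3 of 3 libraries were *Bcl2a1d* at 0.59 ± 0.07, *Pmaip1* at 0.50 ± 0.08, *Bcl2a1b* at 0.42 ± 0.07, *Bak1* at 0.34 ± 0.08 and *Bax* at 0.30 ± 0.06, with adjusted p of 0.000564, 0.00276, 0.00374, 0.0171 and 0.00771 by edgeR. *Bcl2l1* did not pass the test, at 0.12 ± 0.07. So 8 of 9 genes were called, 5 higher and 3 lower, where 27.6% of 12113 genes were (13.6% higher, 14.0% lower), with a median of 0.30 for the 9 and -0.003 for all genes.

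These CD8 T cell calls rested on the comparison within libraries: without the library block 0 of the 9 passed, and 0.372% of all genes did. *Bak1* went to -0.06 with cells thinned to 2000 UMIs and to -0.19 when thinned to 4000 UMIs before gating, where 4 of 9 genes and 7.39% of all genes were called. Median depth was 8377, 9419 and 11224 UMIs per cell without *Havcr2* and 12550, 12416 and 17514 with it. Of 5 naive or memory genes 4 were lower with *Havcr2*, and of 6 cycling genes 5 were higher, and their part in the family's values was not tested.

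*Bcl2*, *Bcl2l11*, *Mcl1*, *Bcl2a1d*, *Bax* and *Bak1* were called in the same direction in the NK and the CD8 T comparison. The share of all genes called in the same direction in both was not computed, so nothing particular to the family is read from this. A test of unequal steps, the NK difference minus the CD8 T difference, called 0 of these 6 genes. It called *Pmaip1* alone (-1.06 ± 0.30; adjusted p = 0.0285, edgeR), which was 1 of 9 genes where 16.4% of 12095 genes were called, 10.6% higher and 5.81% lower. *Pmaip1* lost this call under 9 of 14 alternatives. For the 6 genes above the step differences lay between -0.17 ± 0.10 (*Mcl1*) and 0.27 ± 0.15 (*Bcl2*), and a missed threshold does not show that the steps were equal.

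**Figure D4:**
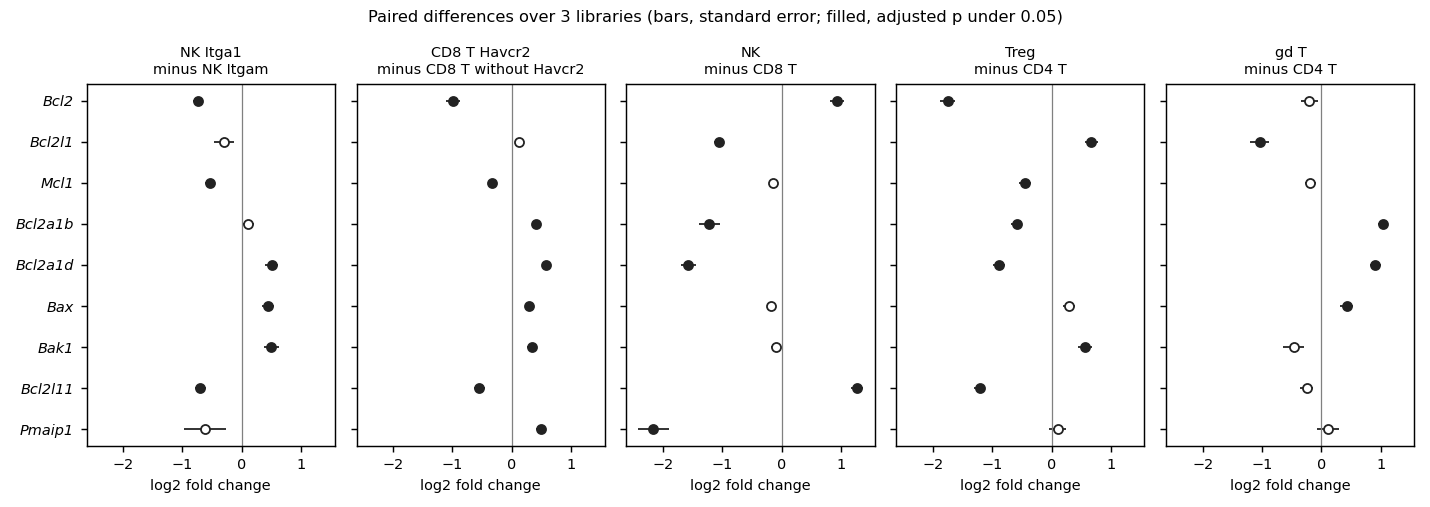
log2 fold change (x axis) of each gene in 5 comparisons within libraries, with standard errors as bars. Filled points have an adjusted p under 0.05 by edgeR. Bcl2, Bcl2l11 and Mcl1 lie left of 0 and Bax, Bak1 and Bcl2a1d right of 0 in both the NK and the CD8 T panel.

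NK and CD8 T cells are the main cytotoxic types of the sort, and 6 of the 9 genes differed between them, in both directions. *Bcl2* and *Bcl2l11* were higher in NK cells, at 461, 338 and 233 CPM against 221, 156 and 167 CPM for *Bcl2* and 582, 536 and 262 CPM against 208, 224 and 139 CPM for *Bcl2l11*. The differences were 0.94 ± 0.12 and 1.28 ± 0.10 (log2, SE; adjusted p = 0.00422 and 0.000975, edgeR). Lower in NK cells were *Pmaip1* (-2.16 ± 0.26, 4.48-fold), *Bcl2a1d* (-1.57 ± 0.13, 2.98-fold), *Bcl2a1b* (-1.22 ± 0.18, 2.33-fold) and *Bcl2l1* (-1.06 ± 0.07, 2.09-fold), each in 3 of 3 libraries and with adjusted p from 0.00059 to 0.00667 by edgeR. *Mcl1*, *Bax* and *Bak1* were at -0.14 ± 0.07, -0.17 ± 0.07 and -0.10 ± 0.07 and did not pass. The 6 of 9 called, 2 higher and 4 lower, compare with 29.1% of 12959 genes, 14.3% higher and 14.8% lower. All 6 cycling genes were lower in NK cells and 6 of the 8 myeloid markers higher, with sums of 67.5 to 346 against 275 to 625 CPM and of 59.3 to 229 against 11.7 to 97.8 CPM, and their part in the values was not tested.

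Treg against CD4 T cells gave the widest change of *Bcl2*. *Bcl2* was 3.36-fold lower in Treg (-1.75 ± 0.13, log2 and SE; adjusted p = 4.67e-06, edgeR), from 182, 128 and 116 CPM in CD4 T cells. *Bcl2l11* was 2.32-fold lower (-1.21 ± 0.10), *Bcl2a1d* 1.85-fold (-0.89 ± 0.10), *Bcl2a1b* lower by a log2 difference of -0.59 ± 0.09 and *Mcl1* 1.37-fold lower (-0.46 ± 0.10), with adjusted p from 9.67e-06 to 0.00583 by edgeR. In turn *Bcl2l1* was 1.59-fold higher (0.67 ± 0.11; adjusted p = 0.0008, edgeR) and *Bak1* 1.49-fold higher (0.57 ± 0.12; adjusted p = 0.00381, edgeR). All 7 differences had the same direction in 3 of 3 libraries. *Bax* (0.29 ± 0.10) and *Pmaip1* (0.10 ± 0.14) did not pass. The 7 of 9 called, 2 higher and 5 lower, compare with 28.9% of 10165 genes, 14.2% higher and 14.7% lower. All 6 cycling genes were higher in Treg, summing to 460 to 565 against 130 to 253 CPM, and median depth was 9474, 10159 and 7039 UMIs per cell against 5773, 7017 and 5972. Without cycling cells 7 of 9 genes and 18.2% of all genes were called. When cells meeting the gates of more than 1 type were kept, 4 of 9 and 10.0% of all genes were called, and *Bak1*, *Mcl1* and *Bcl2a1b* lost the call.

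γδ T cells had more of both A1 genes and less *Bcl2l1* than CD4 T cells. *Bcl2a1b* was 2.06-fold higher (1.05 ± 0.08, log2 and SE; adjusted p = 7.86e-06, edgeR) and *Bcl2a1d* 1.88-fold higher (0.91 ± 0.09; adjusted p = 3.94e-05, edgeR). *Bax* was higher by 0.43 ± 0.11 (adjusted p = 0.0207, edgeR), a call lost under 6 of 14 alternatives, and *Bcl2l1* was 2.06-fold lower (-1.04 ± 0.16; adjusted p = 0.00108, edgeR). *Bcl2*, *Bcl2l11*, *Mcl1*, *Bak1* and *Pmaip1* lay between -0.47 and 0.11 and did not pass. The 4 of 9 called, 3 higher and 1 lower, compare with 16.3% of 8584 genes, 9.33% higher and 6.94% lower. CD4 T cells serve in both this comparison and the one with Treg. Of 5 naive or memory genes 4 were lower and 1 higher in γδ T cells, and 2 of 6 cycling genes were lower. The 8 myeloid markers summed to 52.3 to 351 CPM in γδ T cells and 37.1 to 128 CPM in CD4 T cells. The part of these differences in the family's values was not tested.

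The other genes of the pathway came from 2 lists, 16 further BCL2 family genes and 12 genes of the apoptosome, caspases and their inhibitors. Their counts are given with the share of all genes called in the same comparison, and several lie near or below it. In the NK comparison 1 of the 8 family genes tested was higher and 1 lower. Of 12 caspase-list genes 3 were higher and 4 lower. Of all genes 18.4% were higher and 17.2% lower. *Bbc3*, which encodes the BH3-only protein PUMA, was lower in *Itga1* NK cells (-1.21 ± 0.20; adjusted p = 0.000612, edgeR) as was *Birc3*, an inhibitor of apoptosis (-1.09 ± 0.14; adjusted p = 0.000101, edgeR). *Bnip3*, a mitochondrial BH3-like protein induced by low oxygen, was the family gene higher in *Itga1* NK cells (0.71 ± 0.23; adjusted p = 0.0329, edgeR). It was also higher in *Havcr2* CD8 T cells (1.83 ± 0.16; adjusted p = 0.000123, edgeR) and in Treg (1.97 ± 0.21; adjusted p = 4.43e-05, edgeR). Between all NK and all CD8 T cells it was lower in NK cells (-1.36 ± 0.12; adjusted p = 0.0014, edgeR).

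In *Havcr2* CD8 T cells 2 of 13 tested family genes were higher, *Bnip3* and *Bcl2a1c*, and none lower. *Bcl2a1c* was at 0.817 to 1.59 CPM with *Havcr2* and at 0.383 to 0.457 CPM without it. It passed the filter on low counts through the *Havcr2* cells alone, so its test is not used. Of the caspase list 2 of 12 were higher and 1 lower, *Birc3* (-0.34 ± 0.07), where 13.6% of all genes were higher and 14.0% lower. In NK against CD8 T cells 2 of 13 family genes were higher, *Bcl2l2* (1.10 ± 0.20), which encodes the protective BCL-W, and *Bid* (0.93 ± 0.14), which links caspase-8 to mitochondria. In that comparison 4 family genes were lower, and 3 of 12 caspase-list genes were higher and 2 lower. *Bcl2a1c*, among the 4, rests on 6, 9 and 16 UMIs in NK cells, and its test is not used. The shares of all genes were 14.3% higher and 14.8% lower. Treg had 2 of 8 family genes higher, *Bnip3* and *Bid* (0.84 ± 0.23), and none lower. Among 12 caspase-list genes 5 were higher, *Casp6* (1.22 ± 0.16) being one of them, and none lower. For all genes the shares were 14.2% higher and 14.7% lower. Of 9 family genes tested in γδ T cells, *Bcl2a1a* and *Bik* passed the filter on low counts through γδ T cells alone. Their tests are not used. *Bik* was at 8.51 to 23.9 CPM in γδ T cells and at 1.87 to 5.06 CPM in CD4 T cells, on 3 to 15 UMIs per library. Of the rest, *Bbc3* (0.95 ± 0.23) was higher and was the only one called. In the caspase list 2 of 12 genes were lower, among them *Casp8* (-0.44 ± 0.12), and none higher. Of all genes 9.33% were higher and 6.94% lower.

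Between colors there was a single KR+ library and no test was made. A gene was called when Kaede-red differed from each Kaede-green library at least 1.5-fold in the same direction and by more than the gap between the KG+ libraries. Of 61 gene and group pairs with a mean of at least 10 CPM, 4 passed and all 4 were lower in KR+ cells, which is close to the 6.14% of all pairs that passed, or 3.88% counting lower values only. *Bcl2a1d* passed in CD8 T cells with *Havcr2*, with log2 ratios of -1.02 and -0.85 to Kaede-green 1 and 2, and without it, with -0.69 and -0.79. *Bcl2l11* passed in *Itga1* NK cells, with -0.77 and -0.87. *Bcl2l1* passed in *Itgam* NK cells on 9 UMIs in Kaede-red, which makes it the least certain of the 4. In library order, median depth was 9493, 12066 and 24467 UMIs per *Itga1* and 5348, 6717 and 6701 per *Itgam* NK cell. Per CD8 T cell it was 12550, 12416 and 17514 with *Havcr2* and 8377, 9419 and 11224 without. *Mki67* or *Top2a* was found in 23.5%, 37.8% and 51.3% of *Itga1* and 9.88%, 20.6% and 17.1% of *Itgam* NK cells. The part of depth and cycling in the color ratios was not tested beyond the alternatives given below.

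*Bcl2a1d* and *Bcl2l11* were below both Kaede-green libraries in all 7 groups. The same held for 184 of 5840 genes tested in every group, 3.15%. Of the others, *Bcl2l1* was below both in 6 groups and above both in 0, *Mcl1* in 6 and 1, *Bcl2* in 5 and 1, *Bcl2a1b* in 4 and 2, *Bax* in 3 and 4, *Pmaip1* in 3 and 2 and *Bak1* in 1 and 2, and the share over all genes was not computed for these counts. *Bcl2a1d* in Treg missed the rule narrowly, at -0.72 and -0.58. *Bcl2* in *Havcr2* CD8 T cells was higher in Kaede-red, at 136 CPM against 108 and 101 CPM, below the 1.5-fold rule. The number of pairs that passed was 10 of 62 with cells thinned to 2000 UMIs, 8 of them lower, where 11.2% of all pairs passed, and 0 of 61 with a 2-fold rule, where 1.37% did.

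**Figure D5:**
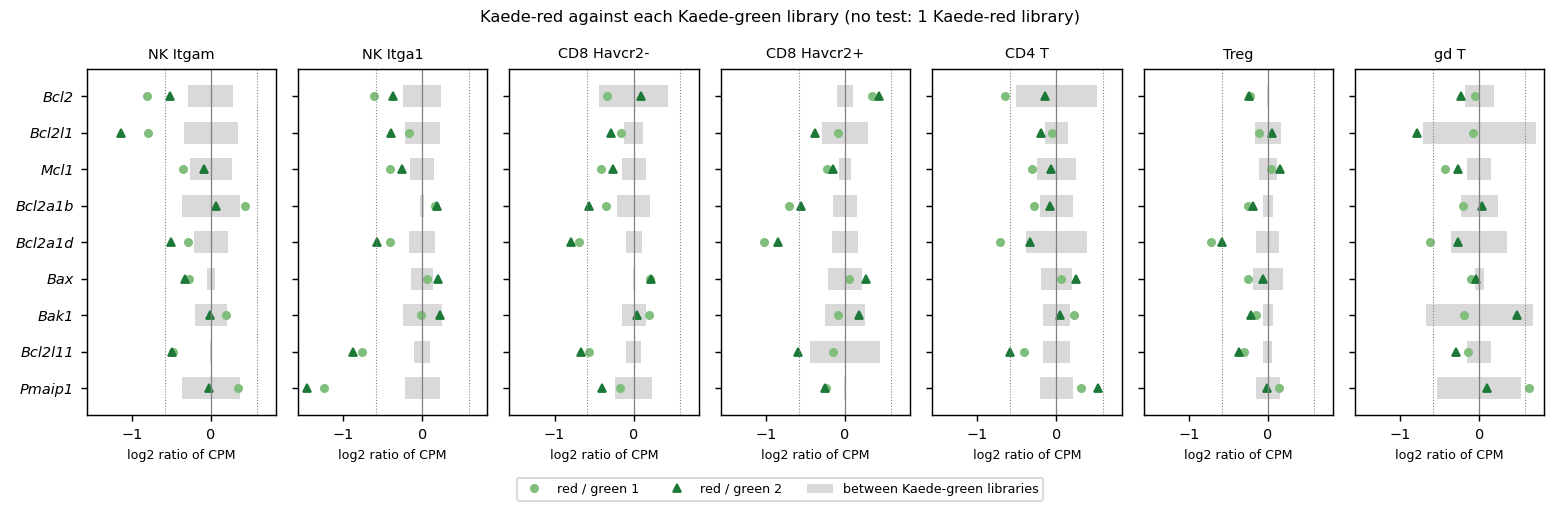
log2 ratio of CPM of Kaede-red to Kaede-green 1 (circles) and Kaede-green 2 (triangles) for 9 genes in 7 cell groups. Gray bars span the ratio between the Kaede-green libraries in both directions and dotted lines mark 1.5-fold. Bcl2a1d and Bcl2l11 lie left of 0 in all 7 groups.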

How the data were processed

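UMI counts were used as deposited by the authors, who made them with Cell Ranger on mm10 and filtered them to cell barcodes without normalizing. The labels name version 6.1.2 and the file headers 6.0.1. Of 32285 genes, 32158 (99.6%) matched GENCODE by identifier. As in the study's methods, a cell needed 1000 to 6000 genes and a mitochondrial share below 7.5%. Cells meeting the gates of more than 1 type (208, 401 and 332) were left out. UMIs were summed per library and group, so cells were never replicates, and sums of 1 library came from the same tumors. Each comparison had 6 sums (12 for the unequal steps), tested with edgeR 4.0.16 (TMM, filterByExpr, library as a block, threshold 0.05) in R 4.3.3. The SE of a log2 difference was derived from the test, as the size of the difference over the square root of edgeR's F statistic. DESeq2 1.42.0 was an alternative, and the edgeR code was tested on simulated counts. Between colors, ratios of CPM had 0.5 added to each count. Scrublet scores (highest 6% per library) served as an alternative only. Named pathway genes were the up to 3 largest called changes each way per list, of which some are not reported here, and likeness was the Pearson r of log2(CPM + 1). The members and lists were chosen with earlier results of these data known. RefSeq promoter windows ran over 300 bases.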

Additional observations from a re-analysis of the deposited data

Results flagged for a closer look

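*Pmaip1* differed between the *Itga1* step in NK cells and the *Havcr2* step in CD8 T cells, by -1.06 (log2, SE 0.30; adjusted p = 0.0285, edgeR's quasi-likelihood test). Within libraries *Pmaip1* was lower in *Itga1* NK cells by -0.41, -0.55 and -1.99 and higher in *Havcr2* CD8 T cells by 0.65, 0.42 and 0.58. The value of -1.99, in Kaede-red, rests on 5 UMIs in 76 *Itgam* NK cells. The NK difference by itself did not pass the test (-0.62, SE 0.35), and the call on the steps was lost under 9 of 14 alternatives.

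*Bcl2l1* in *Itga1* against *Itgam* NK cells was 0.20 in Kaede-red and -0.43 and -0.55 in the Kaede-green libraries. The Kaede-red value rests on 9 UMIs in 76 *Itgam* NK cells, and the difference between colors was not tested.

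*Pmaip1* in Treg against CD4 T cells was -0.11 in Kaede-red and 0.06 and 0.43 in the Kaede-green libraries, and this difference was not tested.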

How the results depend on the processing

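Over the 9 genes, 6 comparisons and their alternatives, 676 of 754 values kept their direction and side of the threshold, 47 lost the call, 18 gained one and 13 had the other sign. Of these 13, 11 were called under neither setting and 2 were called in the analysis reported above, both *Bak1* with *Havcr2* in CD8 T cells, at -0.059 and -0.194 with cells thinned to 2000 and to 4000 UMIs. The replicate block, with the library as the pairing, mattered in 2 comparisons: without it the *Havcr2* comparison called 0 of 9 genes in place of 8, and the unequal steps 0 in place of 1, whereas the other 4 comparisons called 4 to 7. Of all genes 0.372% and 4.20% were then called, and 12.1% to 24.8% in the other 4 comparisons. Thinning to 4000 UMIs before gating also left out cells below 4000 UMIs. It left 2 genes called in the NK comparison (6.89% of all genes) and 4 in the *Havcr2* comparison (7.39%). With the same thinning 4 were left in the Treg comparison (11.1%) and 0 for the unequal steps (4.82%). Keeping cells of more than 1 type left 4 for Treg (10.0% of all genes). The unequal steps also gave 0 without high Scrublet scores (16.4% of all genes) and without cells holding other types' transcripts (14.9%). Pairs past the color rule were 10 and 11 with cells thinned to 2000 and 4000 UMIs (11.2% and 11.1% of all pairs). Without cycling cells 8 passed (7.81%) and at 2-fold 0 (1.37%), against 4 in the analysis reported above (6.14%). Leaving out each library in turn gave 5 to 6 genes for NK (20.5% to 36.2% of all genes) and 7 to 8 for *Havcr2* (14.7% to 26.9%). NK against CD8 T gave 6 to 7 (15.9% to 39.2%) and Treg 6 to 8 (17.1% to 31.2%). For γδ T 3 to 4 were called (10.2% to 15.1%) and for the unequal steps 0 to 1 (6.31% to 13.4%). The cause of these shifts was not tested. Few UMIs of *Pmaip1* and *Bcl2l1* in NK cells limit those genes.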
